A study of Mus musculus with 5 samples.

Results

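The genes examined were *Il12a* and *Il12b*, which encode the p35 and p40 subunits of interleukin 12 (IL-12). They were taken by gene name from the deposited table of differentially expressed genes of bone marrow-derived dendritic cells (BMDCs), and both names were found, so they are 2 of its 1355 genes. RNA-seq of the BMDCs was done on 3 samples of *Irf8*-OE cells and 2 of control cells. *Irf8*-OE mice carried a CAG-driven *Irf8*-Flag transgene behind a stop cassette (*Irf8* CAG-LSL) that *Itgax* Cre, a Cre expressed from the gene of CD11c, removes in CD11c+ cells. The sample labels give the controls as wild type, whereas the study's text gives *Irf8* CAG-LSL without Cre, so the controls may carry the silent transgene. All mice were described as 8 weeks old, male and on the C57BL/6 background, and marrow was cultured with 5 ng/ml GM-CSF and 200 ng/ml Flt3L, which favours CD103+ dendritic cells. Non-adherent cells were replated on day 9 and collected on days 15 to 16, and every sample was labelled as stimulated with TNF-α, for which 20 ng/ml was given. The sources do not say whether each sample came from a separate animal, so the p-values below measure the spread between these 5 samples only.

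IL-12 is a cytokine of dendritic cells and macrophages that drives T cells and natural killer cells to make interferon-γ. Its active form, p70, is a disulfide-linked dimer of p35 and p40, and p40 is usually made in excess of p35, so that p35 is held to limit the amount of p70. The p40 subunit also pairs with p19, encoded by *Il23a*, to form IL-23, and p35 pairs with EBI3 to form IL-35. IRF8 is a transcription factor of the myeloid lineage that is required for type 1 conventional dendritic cells (cDC1s), which are a major source of IL-12, and both subunit genes are known targets of it.

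The subunit genes lie on different chromosomes of mouse build mm10 and are transcribed from the forward strand. *Il12a* (ENSMUSG00000027776) spans chr3:68690644-68698547 and *Il12b* (ENSMUSG00000004296) spans chr11:44400063-44414033. GENCODE vM21 gives the same spans and no other gene overlapping either, so an antisense or overlapping neighbour in that annotation does not share their reads. Both have 8 exons in their first listed transcript. *Il12a* has 6 annotated transcripts with 5 different starts and *Il12b* has 2 transcripts with 1 start, and the gene-level values do not tell these apart. No other gene of the table lay within 1 megabase (1000000 bases) of *Il12a*. The nearest to *Il12b* was *Ebf1*, a B lineage transcription factor, at a distance of 203284 bases, with a log2 fold change of 1.55.

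The 250 bases before each start that RefSeq lists for the pair are shown because both genes were higher in the same samples and IRF8, PU.1 and NF-κB are known to act at such regions. The sequences are from RefSeq on GRCm38.p6, 5′ to 3′ on the forward strand. Capitals mark every match to the 8 motifs searched.
*Il12b*, chr11:44399813-44400062: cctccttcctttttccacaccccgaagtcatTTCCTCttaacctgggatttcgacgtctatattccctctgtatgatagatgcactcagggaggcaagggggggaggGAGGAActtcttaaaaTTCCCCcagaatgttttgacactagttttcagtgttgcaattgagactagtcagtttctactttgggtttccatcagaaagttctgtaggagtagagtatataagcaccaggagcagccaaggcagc
*Il12a*, upstream start, chr3:68690394-68690643: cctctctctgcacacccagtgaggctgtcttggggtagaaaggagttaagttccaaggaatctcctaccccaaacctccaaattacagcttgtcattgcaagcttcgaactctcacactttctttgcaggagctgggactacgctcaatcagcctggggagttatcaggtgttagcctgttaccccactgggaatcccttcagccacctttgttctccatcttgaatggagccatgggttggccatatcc
*Il12a*, downstream start, chr3:68691174-68691423: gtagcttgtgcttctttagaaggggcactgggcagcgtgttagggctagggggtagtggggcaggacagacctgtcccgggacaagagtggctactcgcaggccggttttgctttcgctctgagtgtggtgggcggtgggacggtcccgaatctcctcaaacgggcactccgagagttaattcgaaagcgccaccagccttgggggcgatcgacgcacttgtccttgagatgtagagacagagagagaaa

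The motifs were searched on both strands. They were an IRF repeat GAAANNGAA, an Ets-IRF composite GGAANNGAA, the PU.1 core GAGGAA, AP-1 TGANTCA, C/EBP TTGCNNAA, the NF-κB decamer by its name, the NF-κB core GGGGAA and the TATA letters TATAAA. The *Il12b* window held 2 matches to the PU.1 core, at 219 to 214 bases upstream of the start on the reverse strand and at 143 to 138 bases upstream on the forward strand. It also held 1 match to the NF-κB core, at 127 to 122 bases upstream on the reverse strand. The windows of *Il12a* held 0 matches to any of the 8 motifs. Of 32536 RefSeq promoter windows of this length, 23.4% held the PU.1 core and 20.3% the NF-κB core, so either match is common. The IRF repeat and the Ets-IRF composite occurred in 7.15% and 6.95% of all windows. A match is a string of letters and was not tested as a binding site.

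Levels are given as normalized counts, meaning a gene's reads after division by 1 size factor per sample. All deposited values were whole multiples of 1 step per sample, which gave back the reads. The 1355 genes held 646123 to 1062127 reads in a sample, and the depth of the whole libraries is unknown. A count of 0 allows up to 3 reads, which corresponds to 3.37 and 2.88 normalized counts in control samples 1 and 2. The authors had already selected every gene of the table for a difference between these groups with adjusted p-values below 0.05 and log2 fold changes beyond 1 in either direction. With limma on log2(normalized counts + 1) and the same thresholds, 99.1% of the table was called, 58.1% higher and 41.0% lower in *Irf8*-OE, and the groups did not overlap in 100% of it. A call on *Il12a* or *Il12b* therefore repeats the selection and is not independent evidence, and the sizes below are given as descriptions.

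The sex-linked genes went against the label of male mice in *Irf8*-OE. *Xist* had 10772 to 13476 normalized counts there and at most 1.12 in the controls, and 4 Y-linked genes had 0 counts there and 484 to 1385 in the controls. Sex and genotype divided the 5 samples in the same way, so a part of sex in any difference below cannot be told apart.

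The targeted gene matched the labels. *Irf8* had 7141, 6519 and 6021 normalized counts in *Irf8*-OE samples 1, 2 and 3 and 2835 and 2747 in control samples 1 and 2 (log2 fold change 1.23 ± 0.08 SE, limma adjusted p = 7.99e-06). The groups were well apart, and the overexpressing samples held 2.35 times the control level. Reads of the transgene and of the endogenous gene are summed in these values.

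*Il12b*, the p40 subunit, was readily detected in every sample. It had 258, 307 and 335 normalized counts in *Irf8*-OE samples 1, 2 and 3, from 269, 329 and 334 reads. The 2 control samples had 124 and 127 normalized counts, from 110 and 132 reads. The controls lay close together and every *Irf8*-OE sample lay above both. The means were 300.2 ± 39.3 (SD, n = 3) and 125 ± 2.15 (SD, n = 2), which is 2.40 times the control level (log2 fold change 1.25 ± 0.14 SE, limma adjusted p = 0.000102). With the samples scaled by TMM factors from the listed genes, edgeR's quasi-likelihood test gave a log2 fold change of 0.95 (adjusted p = 5.79e-05), just under the threshold of 1. That scaling lowered the median log2 fold change of all listed genes by 0.31.

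*Il12a*, the p35 subunit, was seen in one group only. It had 20.1, 19.6 and 30.1 normalized counts in *Irf8*-OE samples 1, 2 and 3, from 21, 21 and 30 reads, and 0 reads in both control samples. Exact 95% Poisson intervals were 12.5 to 30.8, 12.1 to 30.0 and 20.3 to 43.0 normalized counts in *Irf8*-OE, and reached up to 4.15 and 3.54 in control samples 1 and 2. These intervals overlapped within *Irf8*-OE and did not overlap between the groups. The sample values of the groups did not overlap in 100% of the selected table, so this separation is a description and not evidence. The *Irf8*-OE mean of 23.3 ± 5.93 (SD, n = 3) was 7.45 times a floor of 3 reads per control library. The fitted log2 fold change, 4.58 ± 0.32 SE (limma adjusted p = 1.19e-05), depends on the added constant of 1, since the control values are 0, and does not bound the change. All intervals here cover counting error only, and low expression in the controls below the floor would not have been detectable.

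**Figure D1:**
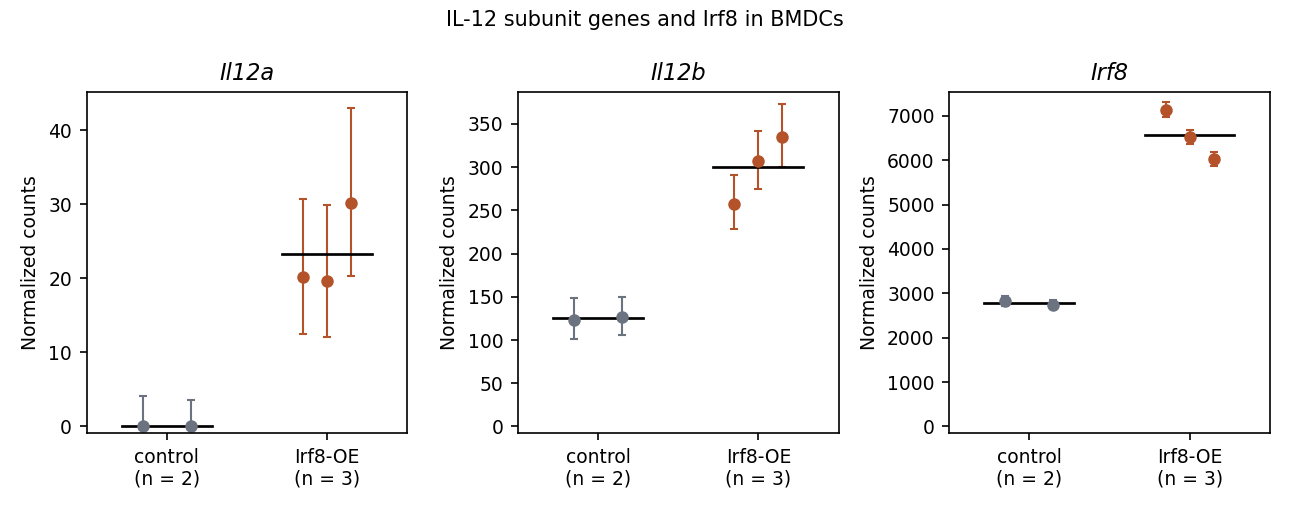
Normalized counts of *Il12a*, *Il12b* and *Irf8* (vertical axes, linear and different for each gene) in 2 control and 3 *Irf8*-OE samples. Points are samples in the order of their numbers, bars are exact 95% Poisson intervals of the counts and black lines are group means. *Il12a* is at 0 in both controls and between 19.6 and 30.1 in *Irf8*-OE, and *Il12b* is at 124 and 127 against 258 to 335.

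Per kilobase of exon, where levels can be compared between genes, *Il12b* stood far above *Il12a*. The lengths in the table, 1701 bases for *Il12a* and 1967 for *Il12b*, equal the joined exons of all GENCODE transcripts of each gene. In *Irf8*-OE the mean levels were 153 ± 20.0 (SD, n = 3) normalized counts per kilobase for *Il12b* and 13.7 ± 3.49 for *Il12a*. *Il12b* ranked 232 and *Il12a* 868 from the highest of the 1355 genes on this scale. In the controls *Il12b* had 63.6 ± 1.09 (SD, n = 2) normalized counts per kilobase and ranked 399. *Irf8* itself had 929.9 and 396 normalized counts per kilobase in the respective groups. By size of change the order was the reverse, 7.45-fold over the floor of 3 reads for *Il12a* against 2.40-fold for *Il12b*. The former holds for the deposited scaling and leaves out counting error. After quantile normalization the fitted log2 fold changes were 2.57 for *Il12a* and 1.12 for *Il12b*. *Il12b* ranked 625 of the 787 genes called higher, whose median log2 fold change was 1.83. No rank is given for *Il12a*, since its fitted log2 fold change ran from 1.72 with a pseudocount of 10 to 7.84 with a pseudocount of 0.1.

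The p40 to p35 ratio could be measured in *Irf8*-OE alone. Per kilobase it was 11.1, 13.5 and 9.63 in samples 1, 2 and 3, with exact 95% binomial intervals of 7.10 to 18.2, 8.72 to 22.2 and 6.62 to 14.5. The samples did not differ beyond these intervals, and the mean ratio was 11.4 ± 1.98 (SD, n = 3). With the length of the first listed transcript of each gene, 1303 and 1861 bases, the mean ratio was 9.24. In control samples 1 and 2, with *Il12a* put at the floor of 3 reads, the ratio per kilobase was 31.7 and 38.0. These values leave out counting error, so they are not limits comparable with the intervals of *Irf8*-OE. *Il12a* was listed for a difference between these same samples, so the ratios of the groups are descriptions.

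As a share of the reads of both genes, *Il12a* made up 7.24%, 6.00% and 8.24% in *Irf8*-OE samples 1, 2 and 3. It made up 0 of 110 and 0 of 132 reads in control samples 1 and 2, which allows a share of up to 2.73% and 2.27%. The exact 95% binomial intervals were 4.54% to 10.9%, 3.75% to 9.03% and 5.63% to 11.6% in *Irf8*-OE, and reached up to 3.30% and 2.76% in the controls. No *Irf8*-OE interval overlapped a control interval. At the joint *Irf8*-OE share of 7.17% (72 of 1004 reads), the 242 control reads of the pair would hold 17.4 *Il12a* reads, and 0 were seen. With *Il12a* at 0 in both controls, the groups could not overlap in share, so no test over samples is given. Reads are not replicates of a genotype, so the intervals compare these libraries only. *Il12a* was listed because the authors found it to differ between these same samples. The intervals and the 17.4 reads are therefore descriptions and not evidence of a difference in share.

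Relative to the overexpressed factor, *Il12b* levels overlapped between the groups. Per 1000 normalized counts of *Irf8* it had 36.1, 47.1 and 55.7 in *Irf8*-OE samples 1, 2 and 3 and 43.6 and 46.1 in the controls. The means were 46.3 ± 9.83 (SD, n = 3) and 44.9 ± 1.77 (SD, n = 2). The two-sided exact permutation test gave p = 0.8, where 0.2 is the smallest value possible. With so few samples it cannot decide whether the groups differ or are alike. Both genes had been selected for a difference between these samples, so their ratio is a description. Among the *Irf8*-OE samples, sample 1 had the highest *Irf8* and the lowest *Il12b*, and sample 3 the lowest *Irf8* and the highest *Il12b*. With 3 samples this order is a description, and no correlation is given. *Il12a* per 1000 normalized counts of *Irf8* was 2.82, 3.01 and 5.00 in *Irf8*-OE samples 1, 2 and 3.

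**Figure D2:**
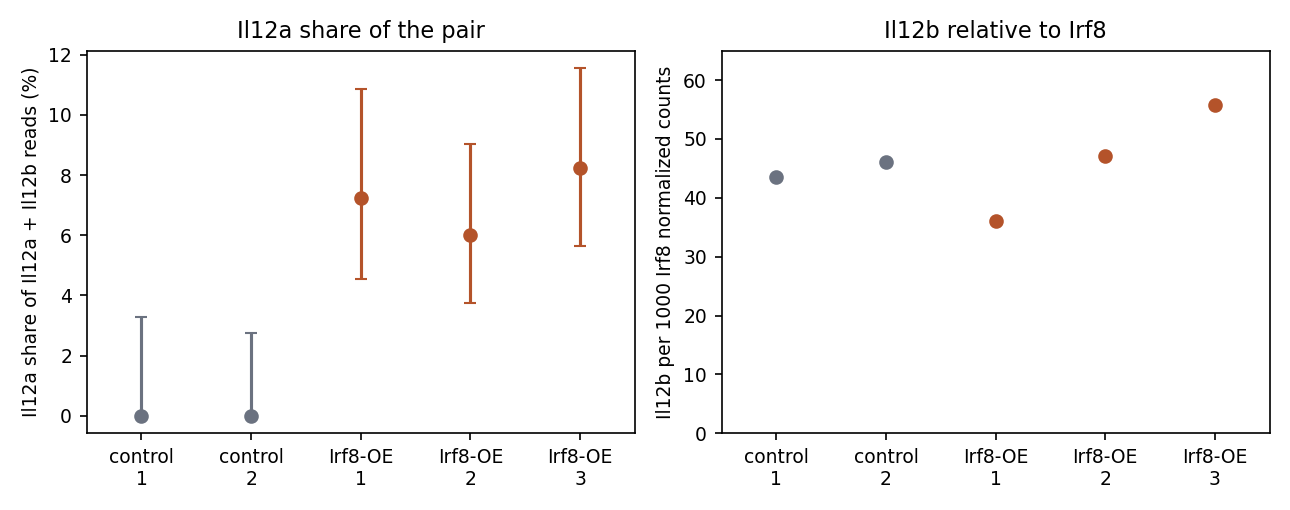
Left, share of *Il12a* in the reads of *Il12a* and *Il12b* together (percent) in each sample, with exact 95% binomial intervals. Right, normalized counts of *Il12b* per 1000 normalized counts of *Irf8* in each sample. The *Il12a* share is 6.00% to 8.24% in *Irf8*-OE and 0 in the controls, while the values relative to *Irf8* overlap between the groups.

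Of 68 genes in lists of IL-12 subunits, receptors, signalling, regulators and responses, 13 were in the table, 10 of them called higher and 3 lower in *Irf8*-OE. Without *Il12a*, *Il12b* and *Irf8* these were 7 higher and 3 lower. Of all 1355 genes 58.1% were called higher. The median log2 fold change was 1.47 over the 13 genes, which include *Il12a*, *Il12b* and *Irf8*, and 1.14 over all 1355. All had been selected for log2 fold changes beyond 1 in either direction. These medians therefore depend on the share called higher and do not compare the sizes of change. List genes outside the table are not analysed here.

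Among the subunits of the IL-12 family, *Il12a* and *Il12b* were the listed 2 of 5. *Il23a*, *Il27* and *Ebi3*, whose products form the sister cytokines IL-23, IL-27 and IL-35 with these or related chains, were not in the table. Of 5 receptor genes 1 was listed. *Il27ra*, the specific receptor chain for IL-27, had 65.4 to 81.5 normalized counts in *Irf8*-OE and 172 and 189 in the controls (log2 fold change -1.27 ± 0.16 SE, limma adjusted p = 0.000181). The genes of the IL-12 receptor itself, *Il12rb1* and *Il12rb2*, were not in the table.

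Of 8 signalling genes, *Socs1*, an inhibitor of JAK-STAT signalling downstream of interferon and IL-12 receptors, was the only one listed. It had 723 to 960.2 normalized counts in *Irf8*-OE and 1994 and 1865 in the controls (log2 fold change -1.21 ± 0.12 SE, limma adjusted p = 6.24e-05). Of 13 transcription factor genes 2 were listed and both were higher, as were 58.1% of all 1355 genes. They were *Irf8*, which was overexpressed by design, and *Irf7*, a factor of type I interferon induction. *Irf7* had 367 to 427 normalized counts in *Irf8*-OE and 97.8 and 118 in the controls. *Batf3*, *Spi1*, which encodes PU.1, and the NF-κB genes *Rel*, *Rela* and *Nfkb1* were not in the table.

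Of 15 upstream receptors and adaptors, *Cd40* and *Tlr11* were listed and called higher, as were 58.1% of all 1355 genes. CD40 receives the T cell signal that raises IL-12 output, and *Cd40* had 423 to 521 normalized counts in *Irf8*-OE and 215 and 218 in the controls. Its log2 fold change of 1.07 fell to 0.97 without *Irf8*-OE sample 1. *Tlr11*, a sensor of parasite profilin that triggers IL-12 in mouse dendritic cells, was near the lower end of detection. It had 17.1 to 26.8 normalized counts in *Irf8*-OE and 5.62 and 5.76 in the controls, the latter from 5 and 6 reads. Its log2 fold change of 1.75 became 0.51 (adjusted p = 0.142 from limma) after quantile normalization and was 1.61 (adjusted p = 0.00373) under edgeR with TMM.

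A list of 10 genes drawn up for restraint of IL-12 held 2 listed genes, which went in opposite directions. *Nfkbiz* had 797 to 922 normalized counts in *Irf8*-OE and 293 and 244 in the controls (log2 fold change 1.68 ± 0.11 SE, limma adjusted p = 8.83e-06). It encodes IκBζ, a nuclear IκB protein that is also known as a coactivator of *Il12b* in macrophages, so the name of the list does not describe it. *Tgfbr1*, a receptor for the suppressive cytokine TGF-β, had 2113 to 2639 against 5083 and 5062 normalized counts. Its log2 fold change of -1.05 became -0.61 after quantile normalization and -0.95 without *Irf8*-OE sample 1, and was -1.36 under edgeR with TMM.

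Of 12 genes drawn up for the interferon-γ response 3 were listed and all were higher. For upregulated genes related to IRF8, the paper reported mainly type I interferon signalling terms. Which interferon or other cytokine acted on these 3 genes was not tested. Of the whole table, 58.1% was called higher. *Cxcl10*, a ligand of the T cell chemokine receptor CXCR3, had 118 to 165 normalized counts in *Irf8*-OE and 56.2 and 42.2 in the controls. *Iigp1*, an interferon-inducible GTPase, had 69.0 to 100.4 against 14.6 and 15.4 (log2 fold change 2.35 ± 0.24 SE, limma adjusted p = 7.33e-05). *Cxcl9*, another CXCR3 ligand, had 10.5 to 22.1 normalized counts in *Irf8*-OE and 2 and 3 reads in the controls. Its *Irf8*-OE mean was 4.98 times the floor of 3 reads per control library. Its log2 fold change of 2.16 became 0.45 (adjusted p = 0.288 from limma) after quantile normalization and was 2.22 (adjusted p = 0.00332) under edgeR with TMM. *Ifng* was not in the table.

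**Figure D3:**
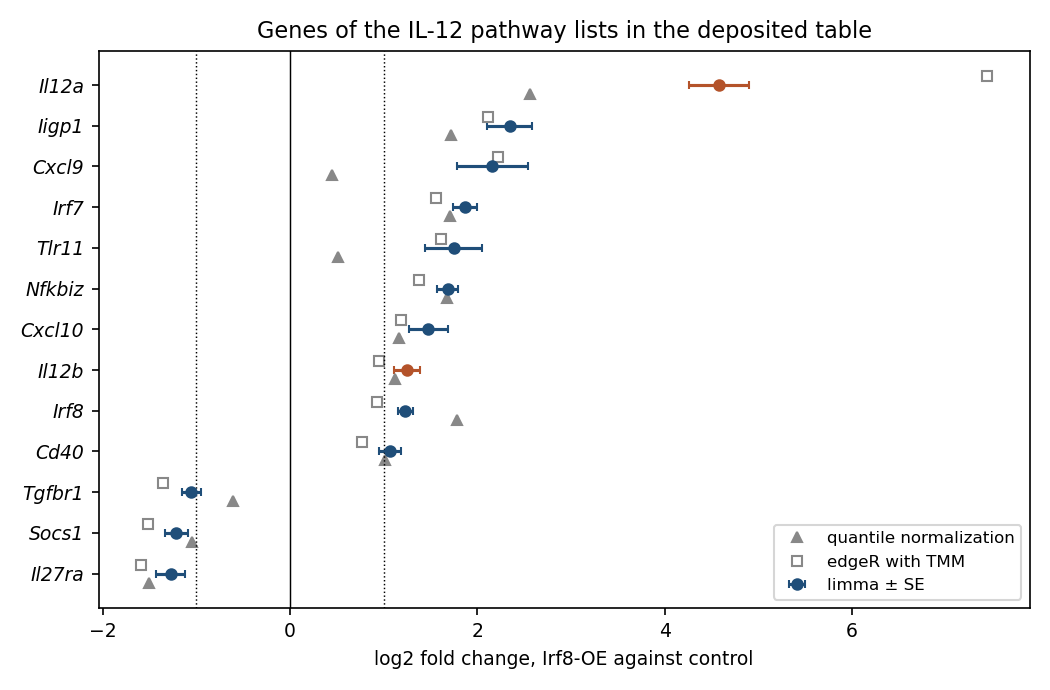
Log2 fold change of *Irf8*-OE against control (horizontal axis) for the 13 listed genes of the IL-12 lists, with limma estimates and standard errors as filled circles (*Il12a* and *Il12b* in orange), quantile normalization as triangles and edgeR with TMM as open squares. Dotted lines mark the threshold of 1 in both directions. In all these settings 10 genes lie to the right of 0 and 3 to the left, *Il12b* lies just past the threshold in limma and after quantile normalization and just short of it in edgeR, and the spread of *Il12a* comes with control values of 0.

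The genes nearest to the members in pattern were found by Euclidean distance between log2(normalized counts + 1) over the 5 samples, a measure that favours genes of the same level. Those nearest to *Il12a* were *Igkv3-12*, *Ighg3*, *Art4*, *Gbx2* and *Igkv6-23*, at distances of 0.32 to 0.58. All had 0 counts in both controls, which the measure favours because *Il12a* is at 0 there. Of these neighbours 3 are immunoglobulin genes, and the share of such genes among all genes at 0 in the controls was not determined. Those nearest to *Il12b* were *Prickle2*, *Sdc2*, *S1pr1*, *C1s1* and *Pmepa1*, at distances of 0.25 to 0.37. Their mean levels were 299 to 331 normalized counts in *Irf8*-OE and 119 to 144 in the controls. The members were far from each other, at a distance of 11.7, and *Il12b* ranked 916 among the neighbours of *Il12a*.

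Markers of several cell types moved with the groups, and in RNA from whole cultures more cells of a type cannot be told apart from more RNA per cell. All listed markers had been selected for a difference, and 58.1% of the whole table was called higher and 41.0% lower. Of 14 cDC1 markers 4 were listed, of which *Itgae*, *Tlr11* and *Irf8* itself were higher and *Cd24a* was lower. Their sum was 10258 to 10895 normalized counts in *Irf8*-OE and 12579 and 13232 in the controls. The sum was carried by *Irf8* and by *Cd24a*, the latter with 3564 to 4042 against 9688 and 10426, so it does not describe the other markers. *Itgae* encodes CD103, the marker that the culture is named for, and had 144 to 178 against 50.6 and 52.8 normalized counts. *Xcr1*, *Clec9a* and *Batf3*, which define cDC1s, were not in the table, so the labelled cell type could not be checked on them. Of 9 cDC2 markers 2 were higher and 1 lower (sums 4618 to 4779 against 2200.4 and 2229). *Mgl2* carried this sum, with 4583 to 4744 against 2172 and 2111. *Cd4* was also higher, and *Cd209a* was lower, with 6.03 to 8.63 against 50.6 and 81.6. Of 7 plasmacytoid dendritic cell markers 2 were higher (25.9 to 41.1 against 0 and 3.84), with *Siglech* at 0 in both controls.

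Macrophages can also make IL-12, and 8 of 12 macrophage markers were listed, all higher, with summed levels of 23337 to 28074 normalized counts in *Irf8*-OE and 4710 and 4901 in the controls. All 7 listed of 10 B lineage markers were higher (3523 to 3983 against 209 and 251), as were all 5 listed of 10 stromal markers (7695 to 8719 against 1549.8 in each control). These counts stand beside the 58.1% of all 1355 selected genes that were called higher. Of 10 neutrophil markers *Mpo*, *Elane* and *Csf3r* were higher and *Ly6g* was lower (1637 to 1681 against 405 and 488 in sum). Of 12 mast cell and basophil markers 7 were lower and 2 higher (35749 to 39516 against 230513 and 234955). The 2 higher ones were the basophil proteases *Mcpt8* and *Prss34*, at 1202 to 1277 against 167 and 188 and at 1359.9 to 1575 against 138 and 96.9 normalized counts, while the sum was carried by *Cpa3*, a mast cell protease with 20272 to 24286 against 175134 and 179473. The part of these cell types in the levels of *Il12a* and *Il12b* was not tested.

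**Figure D4:**
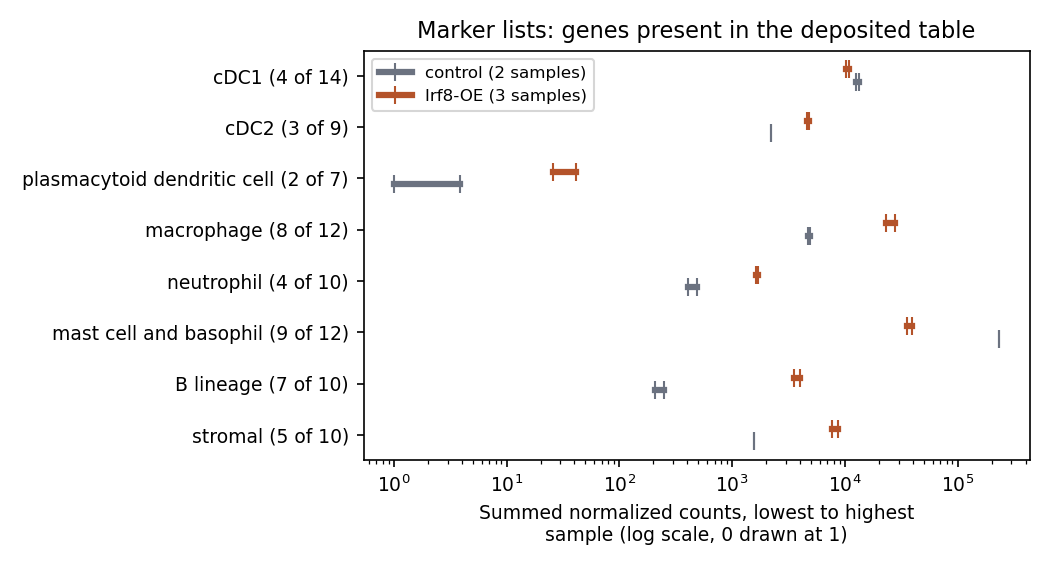
Summed normalized counts (horizontal axis, log scale) of the markers of each cell type that are in the table, drawn from the lowest to the highest sample for control and *Irf8*-OE. The numbers beside each name give the listed and all markers. Macrophage, B lineage and stromal sums are higher and the mast cell and basophil sum is lower in *Irf8*-OE.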

How the data were processed

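RNA-seq of BMDCs from 3 *Irf8*-OE and 2 control samples was analysed, grouped by the sample titles. The authors' deposited signal values are normalized counts, that is, reads per gene divided by 1 size factor per sample. The submitters' processing notes name fastp, HISAT2 2.0.5, featureCounts 1.5.0-p3, DESeq2 1.20.0, edgeR 3.22.5 and build mm10. Whether reads were counted by strand is not given in the sources used here. The deposited table also holds the authors' group means, fold changes and p-values, which were not used, and the gene length, an exon length in bases given by the authors. It lists genes past the authors' thresholds only.

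Reads were recovered from the step of each sample. In all 5 samples 100% of the values were whole multiples of it within 0.01. The step of *Irf8*-OE sample 3 lies near 1 normalized count, so tests on reads were repeated without that sample. Log2(normalized counts + 1) was fitted with limma 3.58.1 in R 4.3.3, with a mean-variance trend and no covariates, over all 1355 genes with Benjamini-Hochberg adjustment, and a call needed an adjusted p-value below 0.05 with a log2 fold change beyond 1 in either direction. The script was tested on simulated data. Exact tests and intervals used scipy 1.17.1. A floor of 3 reads per library was used for counts of 0, and intervals are at 95%.

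The members and gene lists were chosen with earlier results of these data known. Named genes were *Il12a*, *Il12b* and *Irf8*, every listed gene of the IL-12 lists, the 5 nearest genes in pattern of each member, and marker and sex-linked genes as checks. Alternatives were pseudocounts of 0.1 and 10, quantile normalization, a filter of 10 normalized counts in every sample of 1 group, edgeR 4.0.16 and DESeq2 1.42.0 on recovered reads, blocking on the replicate number, and omitting 1 sample at a time.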

Additional observations from a re-analysis of the deposited data

How the results depend on the processing

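*Il12a* stayed called higher under all 15 alternatives, with log2 fold changes from 1.72 with a pseudocount of 10 to 7.84 with a pseudocount of 0.1, and adjusted p-values up to 0.000845 (limma, edgeR or DESeq2). *Il12b* stayed higher in all 15 and called in 13. Under edgeR with TMM factors its log2 fold change was 0.95, and 0.87 without *Irf8*-OE sample 3, the latter chosen after seeing the data. *Irf8* was at 0.92 and 0.99 there. TMM takes most genes as unchanged, which a table of selected genes does not meet by its construction. Quantile normalization gives every sample the same distribution of values, which such a table need not meet either. With each sample left out, the log2 fold changes stayed between 4.38 and 4.68 for *Il12a*, 1.16 and 1.35 for *Il12b* and 1.17 and 1.29 for *Irf8*, where a lone control is assumed to vary like the other samples. The p40 to p35 ratio stayed between 10.4 and 12.3 with each *Irf8*-OE sample left out, and was 14.4 after quantile normalization and 9.24 with the length of the first transcript, chosen after seeing the data. Between 10 and 13 of the 13 listed IL-12 genes were called in every setting. Beside the genes named above, *Cxcl9* was at 0.999 with a pseudocount of 10 and missed the adjusted threshold in DESeq2 without *Irf8*-OE sample 3 (adjusted p = 0.066), and *Cd40* was at 0.77 under edgeR with TMM.

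Quantile normalization moved the median log2 fold change of all listed genes by -0.38, TMM by -0.31 and a pseudocount of 10 by -0.15. The calls were 787 higher and 556 lower in limma, 499 and 524 after quantile normalization, and 592 and 558 under edgeR with TMM.

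The replicate numbers are shared by name only. Deviations of same-numbered samples from their group means had correlations of 0.0275 and 0.0207 by the titles and -0.0207 and 0.00893 by the descriptions. With the replicate number as a block, *Il12a* was at 4.38 or 4.66 and *Il12b* at 1.16 or 1.35 by either numbering, all called, and 1319 or 1271 genes were called in place of 1343. The *Irf8*-OE sample without a same-numbered control, sample 3 by the titles and sample 1 by the descriptions, carried no weight in these fits, and the log2 fold changes equal those without that sample. This holds also for *Cd40* and *Tgfbr1*, which were under the threshold with the description numbers and without *Irf8*-OE sample 1, at 0.97 and -0.95 in both.

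The low counts of *Il12a*, at most 30 reads per sample, limit the precision of its level and ratio.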
